A study of Mus musculus with 8 samples.

Results

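A group of 10 neuronal genes known as classic targets of the repressor REST was followed in the embryonic mouse brain after REST loss in neural progenitors. The genes were Celsr3, L1cam, Bdnf, Disp2, Mapk8ip1, Dusp26, Rundc3a, Ap3b2, Hpca and Gdap1, chosen as genes with a known RE1, the DNA element that REST binds, that encode no synaptic vesicle, channel, receptor or granin protein. All 10 were measured, by 21 of the 45037 probe sets tested, and they are 10 of the 18193 genes that the array annotation names. RNA of whole brain at E12.5 was hybridized to Affymetrix mouse expression arrays, 4 of Cre+, Rest GTi/GTi embryos and 4 of control embryos. Controls were Rest GTi/GTi littermates without Cre, so both genotypes carried the inverted gene trap in the first Rest intron on both alleles in a C57/BL6 background, and the genotypes differed in the Nestin Cre transgene, which turns the trap back into its stopping orientation in neural progenitors. Presence of Cre and absence of REST cannot be told apart, the trap is not turned in cells outside the Nestin lineage, and the sources do not say whether an array holds 1 embryo or several.

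REST (RE1 silencing transcription factor) is a zinc finger protein that binds the RE1 and brings co-repressor complexes with histone deacetylases and demethylases to neuronal genes. It is present in non-neuronal cells and neural progenitors and is lost as progenitors become post-mitotic neurons, when its targets become active. The 10 genes act in what a young neuron has to build besides its synapses: axon tracts, secreted signals, kinase scaffolds, vesicle sorting, calcium sensing and mitochondrial shape.

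The RE1 itself is a 2-block sequence, and its letters are shown here because the group was chosen as genes with a known RE1. A search of 300 bases per transcript start (250 before to 50 after, RefSeq, GRCm38.p6) used the blocks TTCAGCACC and GGACAG with 2 free bases between them, then 1 free base and GCC, on both strands, with at most 3 of the 18 fixed letters differing. RefSeq windows were at hand for Celsr3, L1cam, Bdnf, Ap3b2 and Hpca, 14 windows in all, and no window was matched for Mapk8ip1, Rundc3a, Disp2, Dusp26 and Gdap1. Celsr3 was the only one of the 5 with a match, 127 bases before its start, and across all RefSeq windows 31 of 32851 (0.0944%) held one. Among 23 other RE1 target genes with a window, 3 held a match (Syn1, Gria2 and Chrm4), and among 27 paralogues and partners of the group none did (0 of 27). The matches are set beside each other below, read along the motif, with fixed letters that match in capitals.
Celsr3, chr9:108825918-108825938, plus strand, 3 letters differing: TTCAGCACCgtGGgCAGcaCt
Syn1, chrX:20921130-20921150, minus strand, 1 letter differing: TTCAGCACCgcGGtCAGaGCC
Gria2, chr3:80802989-80803009, plus strand, 2 letters differing: TTtAGCACCgcGGACAGcGCt
Chrm4, chr2:91921975-91921995, minus strand, 3 letters differing: TcCAGCACCgaGGgCAccGCC
In Celsr3 and Syn1 the first block is complete, and the differing letters of Celsr3 all lie after its first block. The Celsr3 window, chr9:108825795-108826094 on the plus strand, is given whole as the one promoter of the group that held the motif, with the match in capitals.
Celsr3 promoter: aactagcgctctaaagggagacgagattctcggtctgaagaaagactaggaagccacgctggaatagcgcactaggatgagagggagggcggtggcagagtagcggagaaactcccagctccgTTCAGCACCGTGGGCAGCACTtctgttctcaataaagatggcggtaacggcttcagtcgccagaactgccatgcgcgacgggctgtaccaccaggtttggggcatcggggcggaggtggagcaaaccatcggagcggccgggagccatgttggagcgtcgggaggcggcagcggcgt
In the windows of L1cam, Bdnf, Ap3b2 and Hpca the closest stretch differed at 6 to 8 letters, which says only that these letters are not in those windows. RE1s also lie in introns and far from starts, outside what was searched.

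None of the 10 genes was called changed. By limma, with Benjamini-Hochberg adjustment over all 45037 probe sets, 0 of the 21 probe sets passed an adjusted p of 0.05, against 0.14% of all probe sets (63), and the lowest adjusted p in the group was 0.51. At an unadjusted p under 0.05 there was 1 of 21, a dim Hpca probe set, against 6.87% of all probe sets. Each gene is described first by its brightest probe set, in normalized intensity units (quantile-normalized, linear), and fold changes are on the log2(intensity + 16) scale, Cre+, Rest GTi/GTi minus control. By that measure 6 genes were above 0 and 4 below, within a range of -0.15 to 0.29, with a median of 0.0835 against -0.0014 over all genes. Leaving out Cre+ replicate 3 brought it to 0.0129, averaging all probe sets per gene to 0.0217, and scaling arrays to the same median to 0.0178. With that last scaling the median over all genes was also lower, at -0.0428. Across all genes 49.5% were above 0.

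The arrays differed in markers of other tissues, and this stands beside every value below. Cre+, Rest GTi/GTi replicates 1 and 2 had high levels of connective tissue markers: the summed level of 12 mesenchyme markers ran from 640.8 to 14478.9 on the Cre+ arrays and from 572.8 to 1450.9 on the controls. Markers of hindbrain and spinal cord (10 Hox genes measured) were high on Cre+ replicates 3 and 4, with sums of 78.5 to 2005.5 on the Cre+ arrays against 98.5 to 657.3. The 12 microglia and macrophage markers did not overlap between genotypes (2254.8 to 2533.2 against 767.5 to 924.2), and 9 of them were called higher. Early neuron markers (16 genes) summed to between 42493.5 and 58351.7 on the Cre+ arrays and 50436.6 and 56335.3 on the controls, so neuronal markers were high on every array, as the brain label has it. Control replicates 2 and 3 alone had a high Xist signal, the RNA of the inactive X of females. Values of 4 arrays are given in order of replicate number throughout, and Cre+ arrays are those of Cre+, Rest GTi/GTi embryos. In whole brain, more cells of a type and more RNA per cell cannot be told apart.

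The targeted gene, Rest, had a lower mean on the Cre+ arrays, but the genotypes overlapped. Rest probe set 1425565_at read 163.1, 216.7, 84.4 and 133.7 on the Cre+ arrays and 170.1, 271.8, 211.1 and 198.3 on the controls. The difference was -0.51 ± 0.25 (SE, limma, adjusted p = 0.758), and where this probe set lies relative to the trap is not given in the sources used here. Of the 3 other Rest probe sets, 1428227_at was at -0.63 ± 0.29 (SE, limma adjusted p = 0.743) and the rest were dim, at -0.14 and -0.02. Replicate 3 had the lowest Rest level of the 8 arrays and replicate 2 the highest of the Cre+ arrays.

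**Figure D1:**
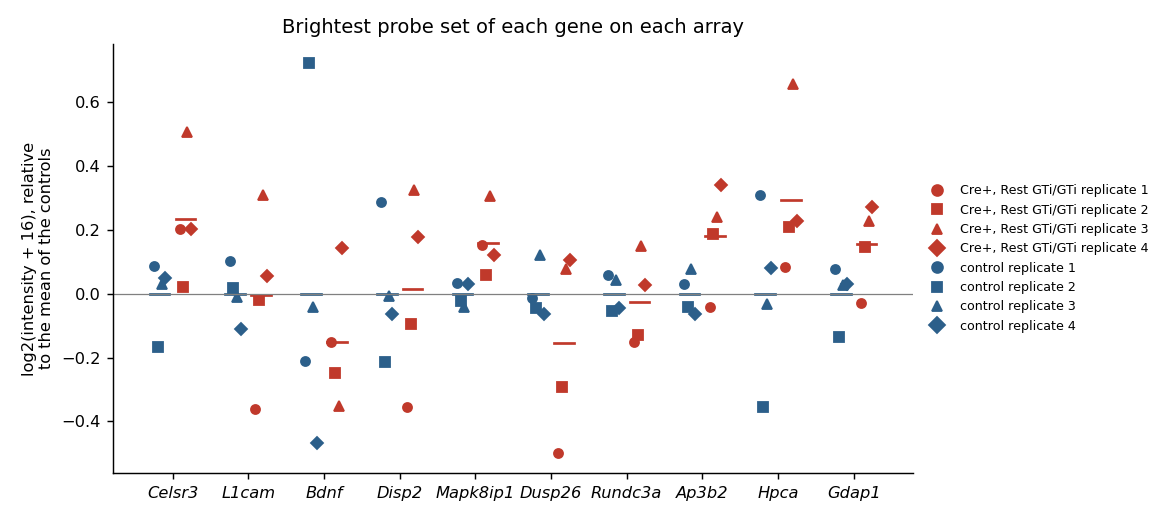
Level of each of the 10 genes on each array, as log2(normalized intensity + 16) of the brightest probe set minus the mean of the 4 controls. Red symbols are Cre+, Rest GTi/GTi arrays, blue symbols controls, symbol shape the replicate number, and short bars the group means (n = 4). In 8 of the 10 genes the red triangle (replicate 3) lies above all controls, and the red circle (replicate 1) is the lowest Cre+ array in 7.

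The 2 surface proteins that guide growing axons differed from each other in their values. Celsr3, a seven-pass cadherin needed for the major axon tracts (chr9:108826023-108852969), read 1079.6, 950.6, 1337.1 and 1080.8 on the Cre+ arrays and 996.8, 833.5, 957.3 and 970 on the controls. Replicates 1, 3 and 4 were above every control and replicate 2 was not. The means were 1112 ± 162 and 939 ± 72.5 (SD, n = 4), a log2 fold change of 0.23 ± 0.11 (SE, 95% interval -0.02 to 0.49, limma adjusted p = 0.758). Celsr3, the gene with the promoter match shown above, kept a positive estimate in all 24 alternatives run, from 0.14 to 0.35, and was called in none. Hpca, without a match in its windows, and Gdap1, without a window, also stayed above 0 in all 24. Their estimates ran from 0.10 to 0.60 and from 0.03 to 0.25.

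L1cam, an immunoglobulin-class adhesion molecule of axons (chrX:73853778-73880838), was measured at 1710.1, 2173.3, 2732.9 and 2286.7 on the Cre+ arrays and at 2365.1, 2231.7, 2187.2 and 2038.6 on the controls. Replicate 3 exceeded every control and replicate 1 was below every control, so the Cre+ arrays spanned the control range on both sides. The estimate was close to 0 with a 95% interval of -0.31 to 0.30 (limma, adjusted p = 0.998). L1cam is X-linked, and the 2 controls with Xist read 2231.7 and 2187.2, between the 2 others. The second L1cam probe set, 1421958_at, ran from 82.2 to 121 on the Cre+ arrays and from 83.7 to 106.4 on the controls (0.03 ± 0.12, SE).

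Of the genes tied to secreted signals, Bdnf was dim and scattered. Bdnf, the neurotrophin that acts through the receptor Ntrk2 (chr2:109674700-109727043), read 65.1, 59.7, 54.5 and 83.3 on the Cre+ arrays and 61.8, 132.1, 71.3 and 49.1 on the controls with 1422169_a_at. All 4 Cre+ arrays lay inside the control range, which control replicate 2 set at its top and control replicate 4 at its bottom. The difference was -0.15 ± 0.24 (SE, 95% interval -0.70 to 0.39, limma adjusted p = 0.951). Without control replicate 2 the estimate was 0.09, and without any other single array it stayed below 0, from -0.31 to -0.09. The other probe set, 1422168_a_at, ran from 27.2 to 59 against 19.7 to 37.6, with a difference of 0.21 ± 0.20 (SE).

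Disp2, a relative of the Hedgehog release protein Disp1 (chr2:118779702-118795175), read 470.5, 566.2, 761.4 and 687.2 on the Cre+ arrays and 741.7, 520, 602.3 and 578.3 on the controls. Cre+ replicate 1 was the lowest of the 8 arrays and Cre+ replicate 3 the highest. The estimate was 0.01 ± 0.16 (SE, 95% interval -0.36 to 0.39, limma adjusted p = 0.997). Of the other Disp2 probe sets, 1446729_at read 21.7 to 31.8 against 5.8 to 36.8, and 1444039_at stayed under the added constant of 16 on every array, where fold changes cannot be read.

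Mapk8ip1 was the only gene of the 10 whose genotypes did not overlap. Mapk8ip1 (JIP1), a scaffold that holds the kinases of the JNK cascade together and links cargo to kinesin (chr2:92383671-92401346), read 651, 609.1, 726.1 and 636.4 on the Cre+ arrays and 597.9, 574.6, 567.4 and 597.4 on the controls with 1425679_a_at. The lowest Cre+ array, replicate 2, was above the highest control, replicate 1. The means were 656 ± 50.1 and 584 ± 15.6 (SD, n = 4), and the log2 fold change was 0.16 ± 0.07 (SE, 95% interval -0.01 to 0.33, limma adjusted p = 0.743). Over the whole array 1.87% of probe sets had every Cre+ array above every control, against 1 of the 21 here, and 2.14% had every Cre+ array below, against 0 of 21.

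The second Mapk8ip1 probe set went the other way. With 1440619_at the Cre+ arrays read 245.6, 224.6, 267.8 and 249.4 and the controls 262.6, 254.7, 249.4 and 259.7. Here 3 Cre+ arrays were at or under the lowest control and replicate 3 was above the highest (-0.05 ± 0.07, SE, limma adjusted p = 0.934). The separation seen with 1425679_a_at was present with quantile normalization and cyclic loess, but the genotypes overlapped in the deposited values and after scaling to a common median.

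Dusp26, a dual-specificity phosphatase of MAP kinases (chr8:31089527-31097046), had an estimate below 0. Its single probe set read 482, 558.8, 726.4 and 740.6 on the Cre+ arrays and 681.8, 666.6, 749.6 and 658.4 on the controls. Replicates 1 and 2, the arrays with high mesenchyme markers, were below every control, and replicates 3 and 4 lay inside the control range. The means were 627 ± 127 and 689 ± 41.5 (SD, n = 4), a difference of -0.15 ± 0.14 (SE, 95% interval -0.47 to 0.17, limma adjusted p = 0.894). With replicates 3 and 4 alone the estimate was 0.09, and the part of the mesenchyme markers in this was not tested.

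Among the genes of vesicle sorting and small GTPase signalling, Rundc3a had nearly equal means. Rundc3a, a RUN domain protein that binds the GTPase Rap2 (chr11:102393394-102402555), read 1483.3, 1507.8, 1830 and 1682.2 on the Cre+ arrays and 1717, 1588, 1700.4 and 1599.8 on the controls. Replicates 1 and 2 were below every control and replicate 3 above every control. The estimate was -0.03 ± 0.09 (SE, 95% interval -0.22 to 0.17, limma adjusted p = 0.983). Its probe set 1436674_at ran from 247.1 to 347.6 against 305.8 to 322.8 (-0.01 ± 0.11, SE).

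Ap3b2, the neuronal beta subunit of the AP-3 vesicle coat (chr7:81460399-81493997), read 468.8, 552.2, 572.2 and 615.7 on the Cre+ arrays and 493, 468.8, 509.8 and 461.1 on the controls. Replicates 2, 3 and 4 were above every control, while replicate 1 lay among the controls. The means were 552 ± 61.6 and 483 ± 22.3 (SD, n = 4), with a log2 fold change of 0.18 ± 0.09 (SE, 95% interval -0.03 to 0.39, limma adjusted p = 0.772). The second probe set, 1451837_at, had a mean under 16 in both genotypes and an estimate of -0.23 ± 0.25 (SE).

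Hpca was measured at a low signal, and its estimate moved with the choice of arrays. Hpca (hippocalcin), a neuronal calcium sensor (chr4:129111570-129125919), read 81.4, 90.3, 128.8 and 91.7 on the Cre+ arrays and 97.9, 56, 73.9 and 81.4 on the controls with 1450930_at. Replicate 3 alone was above every control. The means were 98.1 ± 21.0 and 77.3 ± 17.4 (SD, n = 4), a difference of 0.29 ± 0.17 (SE, 95% interval -0.09 to 0.67, limma adjusted p = 0.8). The estimate was 0.17 without Cre+ replicate 3, 0.10 with the Y-linked transcript Eif2s3y as a covariate and 0.0987 on the 6 arrays with a Y-linked signal.

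The other Hpca probe set, 1425833_a_at, read 8.7, 29.4, 36.3 and 30.7 on the Cre+ arrays and 14.8, 3.4, 3.5 and 3.1 on the controls. Replicates 2, 3 and 4 were above every control and replicate 1 was below control replicate 1. The log2 fold change was 0.90 ± 0.26 (SE, 95% interval 0.32 to 1.49, unadjusted p = 0.00704 and adjusted p = 0.51 by limma). The estimate was 2.01 with an added constant of 1 and 0.43 with 50, since 3 controls lie far under 16, and the adjusted p fell no lower than 0.168 in 21 alternatives. The plot of the Mapk8ip1 and Hpca probe sets shows both pairs.

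**Figure D2:**
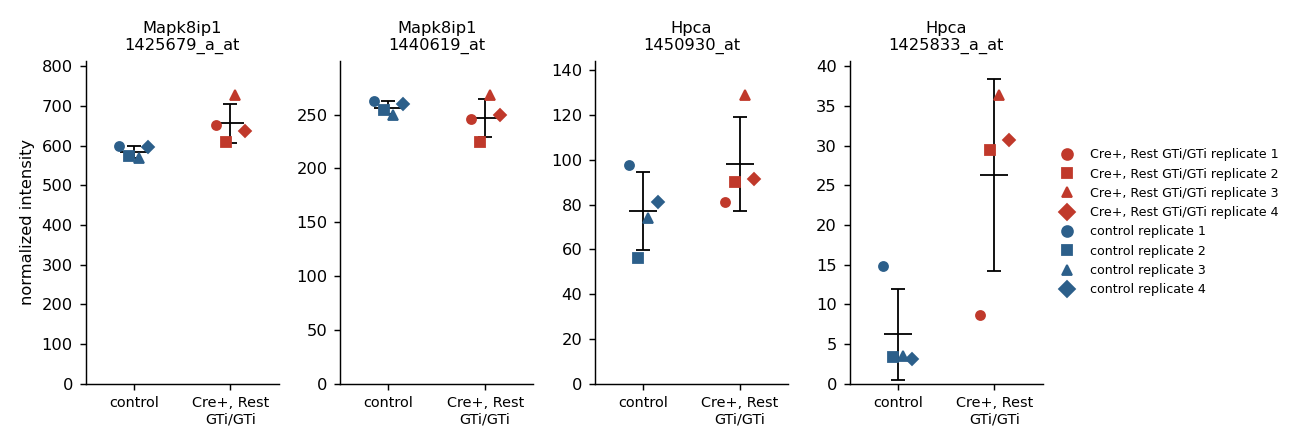
Normalized intensity of both probe sets of Mapk8ip1 (left pair) and of Hpca (right pair) on each array, controls in blue and Cre+, Rest GTi/GTi in red, each axis starting at 0; the horizontal dash and bar are the mean and SD (n = 4). The genotypes are apart only for Mapk8ip1 1425679_a_at, whose partner 1440619_at overlaps, and for Hpca 1425833_a_at a single Cre+ array (replicate 1, 8.7) lies within the control range.

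Gdap1, a mitochondrial outer membrane protein that acts on mitochondrial fission and is mutated in a hereditary neuropathy (chr1:17145373-17164271), had 4 probe sets. The brightest, 1423328_at, read 1370.8, 1548, 1639.8 and 1690.9 on the Cre+ arrays and 1476.3, 1271.8, 1425.4 and 1428.8 on the controls. Replicates 2, 3 and 4 were above every control and replicate 1 was not. The means were 1562 ± 141 and 1401 ± 88.9 (SD, n = 4), with an estimate of 0.15 ± 0.09 (SE, 95% interval -0.05 to 0.35, limma adjusted p = 0.803). Probe set 1450940_at read 745.6, 807.7, 895.2 and 903.5 against 728.7, 734.6, 783 and 751.6, with the same 3 Cre+ arrays above every control and an estimate of 0.15 ± 0.08 (SE). The dimmer probe sets were below 0, with -0.04 ± 0.14 for 1423329_at and -0.16 ± 0.08 for 1437425_at (SE).

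**Figure D3:**
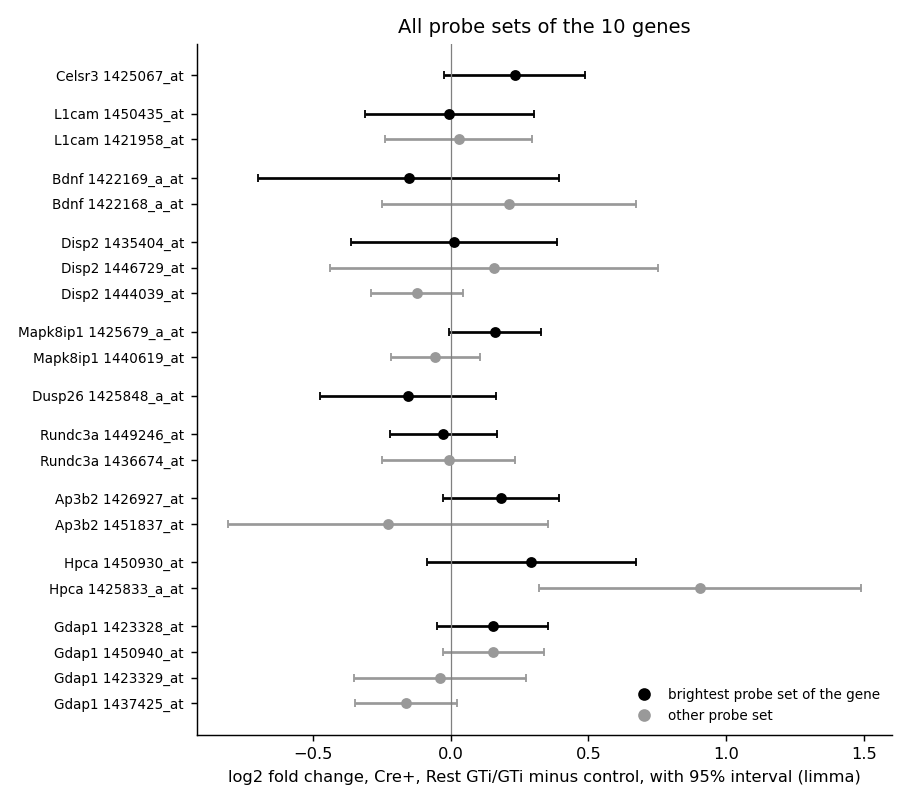
Log2 fold change (Cre+, Rest GTi/GTi minus control, on the log2(intensity + 16) scale) of all 21 probe sets with limma's 95% interval; black marks the brightest probe set of a gene, grey the others. The intervals of the 10 brightest probe sets all include 0, and of all 21 the interval of Hpca 1425833_a_at alone does not.

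Probe sets of one gene often gave different signs. Of the 21 probe sets 11 were above 0 and 10 below, and in 6 of the 8 genes with several probe sets their signs differed. In Ap3b2 and Disp2 the differing sign came from a probe set with a mean under 16. In L1cam both estimates were near 0 (-0.005 and 0.03). Only the Hpca and Rundc3a probe sets shared a sign throughout. By the brightest probe set, the upper 95% limit exceeded a fold of 1.5 in 1 gene (Hpca, 1.59), a fold of 1.3 in 5 genes and a fold of 2 in 0 of the 10. These are folds of intensity + 16, smaller than folds of intensity where the signal is dim, as for Hpca and Bdnf. The highest upper limits among the other probe sets were 2.80 for Hpca 1425833_a_at, 1.68 for Disp2 1446729_at and 1.59 for Bdnf 1422168_a_at.

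Within the Cre+ arrays no single order of arrays held in all 10 genes. Replicate 1 was the lowest Cre+ array in 7 genes and replicate 3 the highest in 6. The mean deviation of the 10 genes from the control mean was -0.12, -0.02, 0.24 and 0.17 (log2) on the Cre+ arrays in order of replicate number, against 0.08, -0.03, 0.02 and -0.06 on the controls. Only Rundc3a, Disp2, Hpca and L1cam ranked the Cre+ arrays as this mean did. Of the 10 genes, 3, 5, 9 and 10 were above the control mean on the 4 Cre+ arrays in that order. Replicate 3 exceeded every control in 8 genes and replicate 1 did in 2, while replicate 1 was below every control in 4 genes.

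The levels of other lists on these arrays are given beside this. Of the 16 early neuron markers 4 were above 0 and 12 below, with a median log2 fold change of -0.04. Their mean deviations were -0.30, -0.01, 0.12 and 0.03 on the 4 Cre+ arrays, the same order of arrays as the mean of the 10 genes. The Hox markers gave -0.46, 0.68, 2.21 and 1.39, also in that order, and the mesenchyme markers gave 2.11, 3.37, -0.04 and -0.29. Among the controls, replicate 1 was the highest for the Hox markers (0.78, above Cre+ replicate 2), for the early neuron markers (0.10) and in 7 of the 10 genes, and without it the median over the 10 genes was 0.14. Rest was lower on replicates 3 and 4 (84.4 and 133.7) than on replicates 1 and 2 (163.1 and 216.7). The part of the neuronal, Hox and mesenchyme markers and of the Rest level in the values of the 10 genes was not tested, and with replicates 3 and 4 alone against the controls the median log2 fold change was 0.23 with 0 probe sets called.

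**Figure D4:**
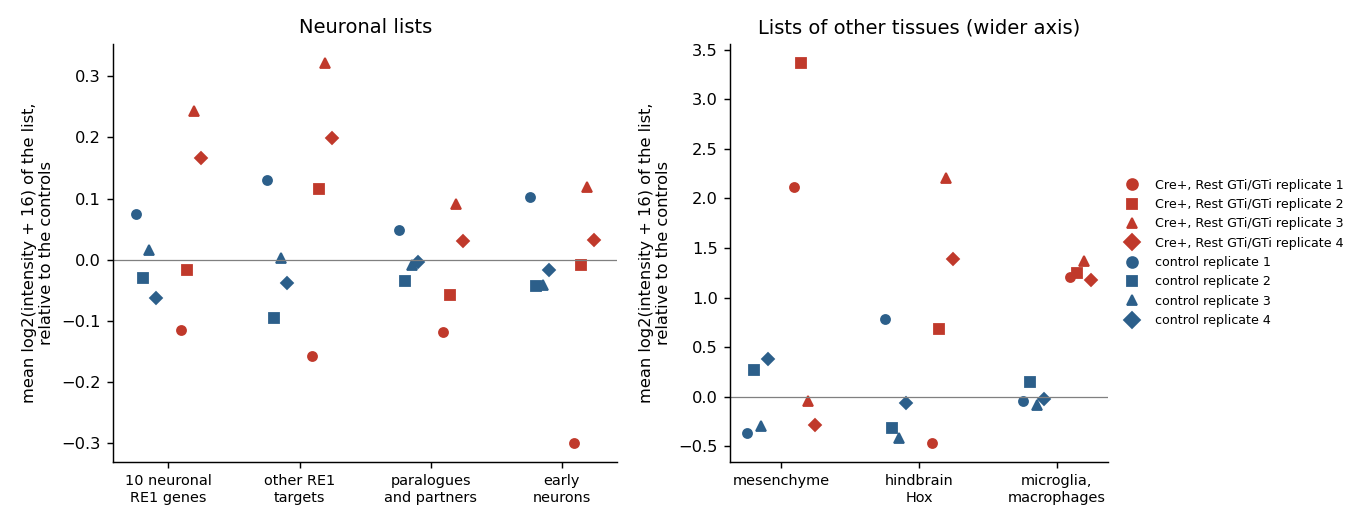
Mean log2(normalized intensity + 16) of gene lists on each array, relative to the control mean; left, the 10 genes, other RE1 targets, paralogues and partners and early neuron markers, right, on a wider axis, markers of mesenchyme, hindbrain Hox genes and microglia. Replicates 3 and 4 (red triangle and diamond) are the highest Cre+ arrays for the 10 genes, at 0.24 and 0.17, and replicates 1 and 2 are the high arrays for mesenchyme, at 2.11 and 3.37.

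The mRNA levels of relatives and binding partners of the 10 genes are set beside them. Of 34 listed, 31 were measured, 0 were called, 11 were above 0 and 20 below, with a median log2 fold change of -0.02. The 4 with the smallest limma p included both signs. Dusp6, a phosphatase of ERK, read 564, 526.1, 379.8 and 445.5 on the Cre+ arrays and 404.4, 378.4, 367.5 and 362 on the controls (0.31 ± 0.12, SE, adjusted p = 0.683), highest on the arrays with high mesenchyme markers. Dusp1, a nuclear MAP kinase phosphatase and immediate early gene, read 1060.6, 1047, 1251.5 and 1277.4 against 1348.4, 1297.4, 1325.1 and 1413.3, every Cre+ array below every control (-0.22 ± 0.09, SE, adjusted p = 0.693). The Bdnf receptor Ntrk2 read 539, 522.7, 496.2 and 590.3 against 591.9, 582.8, 627.8 and 626.1 (-0.17 ± 0.07, SE, adjusted p = 0.717). Celsr1, which acts in planar polarity, read 464.4, 397.8, 373.5 and 355.5 against 278.9, 322.6, 319.4 and 401.6 (0.26 ± 0.12, SE, adjusted p = 0.754). Among other relatives of the 10 genes, Celsr2 was at -0.13, Mapk8ip2 at 0.07, Mapk8ip3 at -0.06 and Rundc3b at -0.04. Ap3b1 was at 0.06, Disp1 at 0.08 and Gdap1l1 at -0.01. Of the relatives of Hpca, Hpcal1 was at 0.14 (limma adjusted p = 0.782), with Cre+ replicates 1, 2 and 3 above every control. Ncald was at 0.04, Ncs1 at -0.02, Hpcal4 at -0.03 and Vsnl1 at -0.10. Of the relatives of L1cam, Nrcam was at -0.06, Chl1 at -0.02 and Nfasc at -0.01.

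Other RE1 target genes, mostly of vesicles, channels and granins, likewise had 0 called of 34 measured from 40 listed, with 28 above 0 and 6 below and a median of 0.11. Their mean deviations on the 4 Cre+ arrays, -0.16, 0.12, 0.32 and 0.20, ran in the same order of arrays as those of the 10 genes. This list shares Elavl3, Stmn2, Nefm and Nefl with the early neuron markers, so the 2 lists are not independent. The smallest limma p belonged to Chga, the granin chromogranin A, which read 384.6, 439.6, 480.7 and 438.1 on the Cre+ arrays and 386.8, 319, 327.9 and 345.3 on the controls (0.32 ± 0.09, SE, adjusted p = 0.51). Scg2, secretogranin II, read 264.8, 447.5, 557.8 and 469.4 against 342.5, 253.4, 319.4 and 287.2 (0.47 ± 0.21, SE, adjusted p = 0.734). In both granins replicates 2, 3 and 4 were above every control and replicate 1 was not, as in Ap3b2 and Gdap1. Sstr3 and Glra3 were the 2 others named by p, both dim, at -0.38 and 0.39. Of the genes whose promoter windows held the motif, Syn1 and Gria2 had estimates of 0.02 each, beside 0.23 for Celsr3. For Chrm4 the estimate was -0.05, but this gene read 0.5 to 0.9 on the Cre+ arrays and 0.8 to 1.8 on the controls. Chrm4 thus stayed under the added constant of 16 on every array, where fold changes cannot be read.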

How the data were processed

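RNA of E12.5 brain from 4 Cre+, Rest GTi/GTi and 4 control samples was measured on 8 Affymetrix mouse expression arrays. The deposited values are linear intensity values per probe set with array medians of 40.9 to 68. The authors' methods and the labels name RMA, without a version, but the values are unscaled, and which step made them is not given in the sources used here. They were quantile-normalized, 16 was added, and log2 values were fitted with limma 3.58.1 (lmFit, eBayes) in R 4.3.3, without 64 control probe sets, Benjamini-Hochberg over 45037, checked on simulated data. The mean of 30.6% of probe sets lay under 16, so their fold changes are understated, and 4 arrays per genotype limit the precision. Genes were named where GEO's platform annotation gives 1 gene (34945 probe sets); the brightest probe set stands for a gene. P-values measure the spread between arrays. Named were all members, Rest, and the 4 genes with the smallest p of 2 lists. Syn1, Gria2, Chrm4 and the other relatives named were added after their values were seen. Members and lists were chosen with earlier results of these data known. Alternatives covered scaling, constant, filter, test, sex signal, block and each array.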

Additional observations from a re-analysis of the deposited data

Results flagged for a closer look

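Of 42 groups of 4 arrays (21 probe sets, both genotypes), 2 had an array far from the other three, where chance gives about 1 in 20. Control replicate 1 stood apart for Hpca 1425833_a_at, at 14.8 against 3.1 to 3.5 on the other controls, a gap of 0.957 of the group's range. Control replicate 3 stood apart for Gdap1 1437425_at, at 92.5 against 84.1 to 84.6, a gap of 0.945 of the range.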

How the results depend on the processing

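No member was called under any of the 22 alternatives that give adjusted p-values over the array, and of 238 gene values 211 kept their direction. The median over the 10 genes stayed above 0 in 24 alternatives; leaving out each array in turn gave 0.0129 to 0.15, a common median gave 0.0178, the mean of a gene's probe sets 0.0217, and keeping of the Cre+ arrays replicates 3 and 4 gave 0.23. The replicate numbers did not pair the arrays (residual correlations of -0.13 to 0.01), and the median with the replicate block was 0.08, with 0 members called. Signs turned mostly where estimates lay near 0. With a common median, where the median over all genes was -0.0428, Disp2 was -0.046. With no scaling, where the median over all genes was 0.0505, Rundc3a was 0.017, L1cam 0.035 and Mapk8ip1 1440619_at 0.017. With array weights L1cam was 0.0038. With Eif2s3y as a covariate Disp2 was -0.092, Bdnf 0.19 and L1cam 0.0019, and on arrays with a Y-linked signal Disp2 was -0.097 and Bdnf 0.19. With Cre+ replicates 3 and 4 alone Rundc3a was 0.088, L1cam 0.18, Dusp26 0.090 and Mapk8ip1 1440619_at 0.0099. With the mean of a gene's probe sets L1cam was 0.013, Bdnf 0.030 and Ap3b2 -0.022. Without the probe sets whose names end in _a_at Mapk8ip1 was -0.055, from 1440619_at, and Dusp26 and Bdnf had none left. Leaving out 1 array gave -0.090 to 0.14 for Disp2, -0.085 to 0.015 for Rundc3a, -0.11 to 0.11 for L1cam and -0.31 to 0.088 for Bdnf. The cause was not tested. Calls over the whole array, 63 by limma, depended on the test and the arrays: 19 with Eif2s3y as a covariate, 20 by the methods' t-test, 8 on arrays with a Y-linked signal, 3 with no scaling, 29 to 42 without 1 array, 73 with trend and robust, and 0 with unequal variances, with the replicate block and with Cre+ replicates 3 and 4 alone. Alternatives for Mapk8ip1 1440619_at and Hpca 1425833_a_at were chosen after seeing the data. Dim signal limits Bdnf and Hpca.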
